A study of Mus musculus with 12 samples.

Results

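The combined effect of losing *Tbr1* and *Tbr2* was measured gene by gene against the sum of the 2 single effects. All 12 arrays of the series were used, each from the neocortex of a single mouse embryo at embryonic day E14.5: 3 from controls, 4 from Tbr1 KO embryos, 2 from Tbr2 cKO embryos and 3 from Tbr1/2 dKO embryos. Tbr1 KO embryos carried a constitutive knockout of *Tbr1*, and Tbr2 cKO embryos a conditional knockout of *Tbr2* (gene symbol *Eomes*). The double mutants were bred to combine both, as Tbr1-/-;Tbr2 2F/2F;Nes11Cre, in which Cre from the Nes11 transgene recombines the floxed *Tbr2* alleles in neural progenitors. The controls, labelled wild type, carried wild-type *Tbr1* alleles and *Tbr2* alleles that had not been recombined. The labels hold these numbers of arrays, whereas the design text of the series gives 4 of each genotype. The RNA was hybridised to Affymetrix Mouse Exon 1.0 ST arrays, and every value below is on the log2 scale.

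*Tbr2* and *Tbr1* encode transcription factors of the T-box family. In the developing cortex, radial glial progenitors express *Pax6*, the intermediate progenitors they produce express *Tbr2*, and many of the glutamatergic neurons that follow, above all those of the preplate and layer 6, express *Tbr1*. Because the factors act in sequence in one lineage, a gene may depend on both. When the effects of 2 losses are independent on the log2 scale, the double mutant changes by the sum of the single changes. When either loss already removes what the other would remove, the double mutant changes by less.

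For each gene the departure from the sum was calculated as Tbr1/2 dKO minus Tbr1 KO minus Tbr2 cKO plus control. A departure with the sign of the Tbr1/2 dKO change was termed larger than the sum, and one with the opposite sign smaller than the sum. A gene was called for a departure at an adjusted p under 0.05 over 14860 genes. It is said below to depart when the unadjusted p was under 0.05, and to follow the sum when the 95% interval of its departure lay within 0.5 of 0. A p above the threshold alone was not taken as additivity.

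The arrays were checked first. In controls the mean value was 13.06 for *Neurod6* (a cortical projection neuron factor), 11.98 for *Eomes*, 10.95 for *Tbr1* and 10.53 for *Pax6*, all genes of the cortical lineage. *Dlx1* and *Dlx2*, factors of GABAergic neurons from the subpallium, were also present, at 9.95 and 9.89. One array stood apart in tissue around the cortex: Tbr2 cKO replicate 1 had a mean of 8.39 over 9 choroid plexus genes and 8.37 over 15 meningeal genes, against 6.71 and 7.40 in replicate 2. Tbr1/2 dKO replicate 1 also had a meningeal mean of 8.44, and in the other arrays that mean was 7.34 to 7.63. With 2 Tbr2 cKO arrays, each of these arrays weighs heavily on a departure. Since these are bulk tissue samples, fewer cells of a type and less RNA per cell cannot be told apart in any value.

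Across the genome, departures from the sum were mostly small on the log2 scale. The median departure over all genes was 0.03, with an interquartile range of -0.06 to 0.11, and 10594 of 14860 genes followed the sum (71.3%). This share rests on the bound of 0.5: with a bound of 0.3, 3904 genes followed. Only 4 genes were called for a departure (0.0269% of those tested), namely *Mc4r*, *Rgs6*, *Bcl6* and *Lpl*. At an unadjusted p under 0.05, 510 genes departed (3.43%), fewer than the 5% that this threshold lets through when nothing departs. Of these, 341 lay above 0 (2.29% of genes) and 169 below (1.14%), a share of 66.9% above 0 that changed to 45.5% when each array was centred on its median, to 52.4% after a further quantile normalization and to 39.1% over all probesets. The predominance of departures above 0 was thus not kept under other scalings, and it is not used below.

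Additivity was examined most directly in the 462 genes called in Tbr1/2 dKO against control (3.11% of genes). In this design the sampling error of the double-mutant change is uncorrelated with that of the departure, so that choosing genes on it does not by itself push them to either side. Their median change was -0.40 in Tbr1/2 dKO, and the median of the sums was also -0.40. The 179 genes called higher (1.2%) had a median change of 0.55 against a sum of 0.53, and the 283 called lower (1.9%) a median of -0.67 against -0.71. Among the 462 genes, 244 followed the sum (52.8%), below the 71.3% of all genes, while 72 departed (15.6%), above the 3.43% of all genes. The median standard error of the departure was 0.15 in these genes, against 0.13 over all genes. The number of genes called in Tbr1/2 dKO moved with the processing: it was 258 without control replicate 1, 283 without control replicate 2, and 192 with the mean of 15 subpallial genes as a covariate. Of those 192, 86 followed, 37 were smaller than the sum and 11 larger. The subpallial mean was 8.79 to 9.09 in Tbr1/2 dKO and 9.11 to 9.26 in controls, and its part in the result was not tested.

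Most departures of these genes were towards less than the sum: 53 were smaller and 19 larger. Without Tbr1/2 dKO replicate 1 this predominance was lost, with 43 smaller and 42 larger, and without Tbr1/2 dKO replicate 2 the number larger than the sum was 29. That number was 10 to 12 without Tbr2 cKO replicate 1 or any 1 control array. Among genes called lower, 41 were smaller and 13 larger. Among genes called higher, 12 were smaller and 6 larger. Over all 462 genes, however, the departure had the sign of the double-mutant change in 214, so that no shift in 1 direction ran through the whole group. Of the 106 genes with a Tbr1/2 dKO change of at least 1 log2 unit, 20 were smaller, 7 larger and 11 within the bound.

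**Figure D1:**
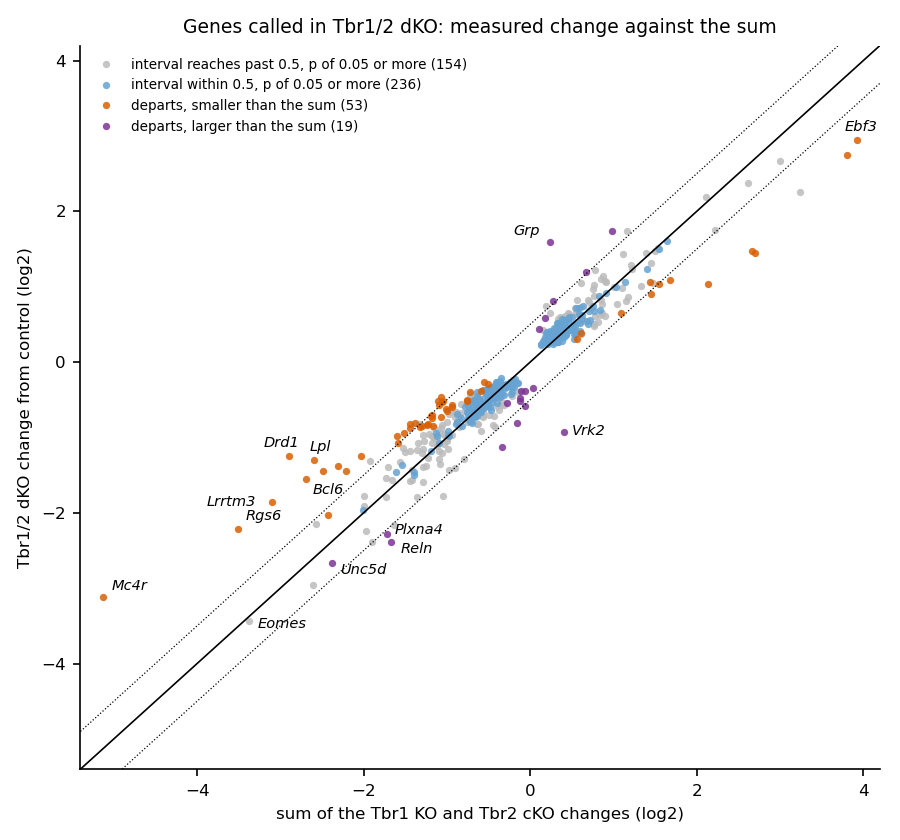
Change in Tbr1/2 dKO (vertical axis, log2 against control) plotted against the sum of the Tbr1 KO and Tbr2 cKO changes (horizontal axis, log2) for the 462 genes called in Tbr1/2 dKO, 1 point per gene. The solid line marks exact additivity and the dotted lines 0.5 to either side; *Mc4r*, *Rgs6*, *Lrrtm3* and *Drd1* lie well above the line at the left, where the sum was strongly negative, and *Grp* above it near a sum of 0.

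The 4 called genes shared 1 pattern: each loss lowered them, and the double loss lowered them little or no further than the stronger single loss. *Mc4r*, a G-protein-coupled receptor for melanocortin peptides, had values of 11.47, 11.71 and 11.71 in controls, 8.27, 8.11, 8.20 and 7.85 in Tbr1 KO, 10.06 and 9.99 in Tbr2 cKO, and 8.72, 8.50 and 8.31 in Tbr1/2 dKO. All mutant arrays lay below all controls, and the double mutants lay above every Tbr1 KO array and below both Tbr2 cKO arrays. The fall was 11.5-fold in Tbr1 KO and 3.04-fold in Tbr2 cKO, which would multiply to 35.0-fold, and 8.68-fold was measured in Tbr1/2 dKO. The departure of *Mc4r* was 2.01 (SE 0.18, 95% interval 1.61 to 2.41, adjusted p = 0.00431). Tbr1/2 dKO differed from Tbr2 cKO by -1.51 (adjusted p = 0.00295) and from Tbr1 KO by 0.41, which did not pass (adjusted p = 0.177).

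*Rgs6*, a regulator that ends G-protein signalling by speeding GTP hydrolysis, had values of 9.18, 9.24 and 9.04 in controls, 7.14, 7.13, 7.01 and 6.88 in Tbr1 KO, 7.57 and 7.94 in Tbr2 cKO, and 7.06, 6.82 and 6.93 in Tbr1/2 dKO. The double mutants overlapped with Tbr1 KO and lay below Tbr2 cKO. The sum was -3.51 and the measured change -2.22, a departure of 1.30 (SE 0.16, interval 0.95 to 1.65, adjusted p = 0.0420). *Rgs6* fell 4.64-fold in Tbr1/2 dKO, where the single falls multiply to 11.4-fold. Its level in Tbr1/2 dKO ranked at percentile 24.7 of all genes, against 39.6 for *Bcl6*, 46.6 for *Mc4r* and 47.0 for *Lpl*. Whether a lower limit of the array signal held back a further fall of these genes was not tested.

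*Bcl6*, a zinc-finger transcriptional repressor that promotes the step from progenitor to neuron, had values of 9.38, 9.65 and 9.54 in controls, 8.09, 8.45, 8.35 and 8.49 in Tbr1 KO, 8.01 and 8.02 in Tbr2 cKO, and 7.974, 7.935 and 7.997 in Tbr1/2 dKO. Here the double mutants lay slightly below both Tbr2 cKO arrays and below every Tbr1 KO array, but neither difference passed the test (-0.04 from Tbr2 cKO, adjusted p = 0.994, and -0.38 from Tbr1 KO, adjusted p = 0.102). The sum was -2.69 and the measured change -1.56, a departure of 1.13 (SE 0.15, interval 0.81 to 1.45, adjusted p = 0.0436). *Lpl*, the lipase that frees fatty acids from circulating lipoproteins, had values of 9.74, 9.75 and 10.05 in controls, 8.49, 8.29, 8.52 and 8.60 in Tbr1 KO, 8.73 and 8.50 in Tbr2 cKO, and 8.46, 8.73 and 8.43 in Tbr1/2 dKO. For *Lpl* all 3 mutant genotypes overlapped with each other below the controls. The sum was -2.60 and the measured change -1.30, a departure of 1.29 (SE 0.17, interval 0.92 to 1.67, adjusted p = 0.0436).

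The call of *Mc4r* held under each alternative other than the fit with the replicate number as a block, in which the adjusted p was 0.0634. With that block the adjusted p was 0.262 for *Rgs6*, 0.151 for *Bcl6* and 0.341 for *Lpl*, so that no gene was called. The calls of *Rgs6*, *Bcl6* and *Lpl* were closer to the threshold: on leaving out each of the 12 arrays in turn, *Rgs6* and *Bcl6* lost the call in 11 fits and *Lpl* in 12, with departures that stayed between 1.05 and 1.48. On an unlogged scale the summed single losses of *Mc4r*, *Rgs6*, *Bcl6* and *Lpl* would remove at least the whole of each control value, which fixes a departure above 0 there, and nothing is read from that scale for these genes.

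**Figure D2:**
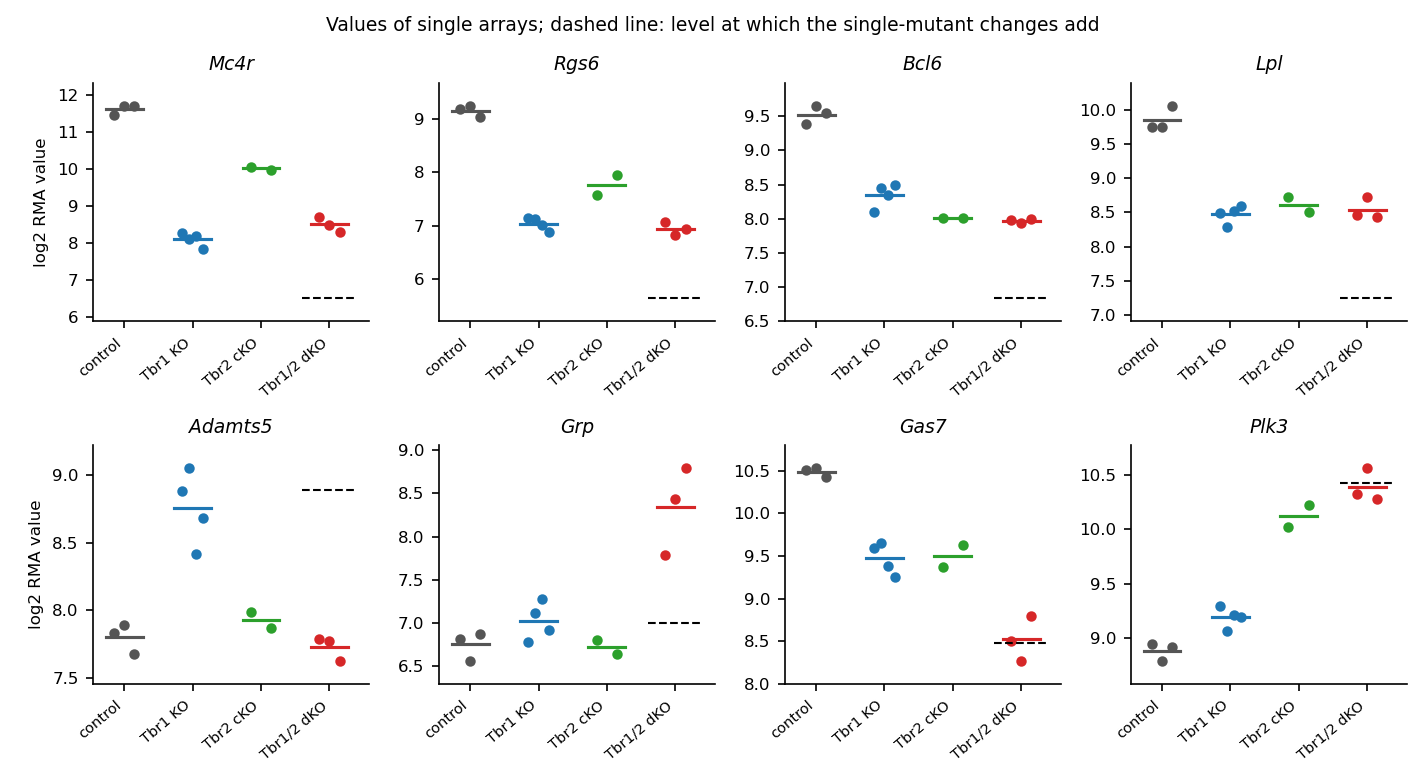
Log2 RMA values of single arrays for 8 genes, with genotypes along the horizontal axis and a separate vertical axis for each gene; short solid lines are group means and the dashed line is the level at which the 2 single changes would add. The Tbr1/2 dKO arrays lie above the dashed line for *Mc4r*, *Rgs6*, *Bcl6*, *Lpl* and *Grp*, below it for *Adamts5* and around it for *Gas7* and *Plk3*.

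The sequence next to the start of some departing genes was examined for the T-box core GGTGTG. Of the 4 called genes and the 20 with the smallest p among the rest, 18 had a promoter in the RefSeq table (GRCm38.p6), and 5 of these held the core, on either strand, within 250 bases before an annotated start (27.8%), against 18.8% of all genes tested that had an entry and 16.3% of all such windows. The share was 20% in the 55 departing and 18.9% in the 190 following genes among those called in Tbr1/2 dKO. The windows of *Rgs6* (chr12:82617249-82617498, plus strand) and *Bcl6* (chr16:23988853-23989102, minus strand) are shown as called genes in which these letters did not occur, and those of *Slc4a10* (chr2:62046265-62046514, plus strand) and *Vrk2* (chr11:26593921-26594170, minus strand), described below, as examples in which they did, in capitals as GGTGTG or its complement CACACC. These examples were chosen after their values had been seen.
Rgs6: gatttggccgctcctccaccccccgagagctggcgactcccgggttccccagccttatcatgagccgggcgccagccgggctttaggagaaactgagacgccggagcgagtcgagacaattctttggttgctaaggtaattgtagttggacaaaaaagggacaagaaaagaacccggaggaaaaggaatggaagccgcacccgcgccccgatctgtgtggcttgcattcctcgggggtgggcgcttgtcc
Bcl6: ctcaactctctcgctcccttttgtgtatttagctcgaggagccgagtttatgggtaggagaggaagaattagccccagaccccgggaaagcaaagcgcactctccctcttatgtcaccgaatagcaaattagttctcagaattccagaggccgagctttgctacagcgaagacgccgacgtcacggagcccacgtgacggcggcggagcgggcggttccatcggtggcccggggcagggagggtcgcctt
Slc4a10: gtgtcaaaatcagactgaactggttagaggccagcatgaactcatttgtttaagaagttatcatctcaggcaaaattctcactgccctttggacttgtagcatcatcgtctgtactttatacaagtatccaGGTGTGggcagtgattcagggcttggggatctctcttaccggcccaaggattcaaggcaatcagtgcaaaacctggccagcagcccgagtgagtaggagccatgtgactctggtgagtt
Vrk2: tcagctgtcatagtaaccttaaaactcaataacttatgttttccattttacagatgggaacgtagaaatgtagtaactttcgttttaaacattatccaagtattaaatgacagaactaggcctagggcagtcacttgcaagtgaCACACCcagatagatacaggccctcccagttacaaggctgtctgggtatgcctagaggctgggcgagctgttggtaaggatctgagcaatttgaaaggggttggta
The core began 119 bases before the start of *Slc4a10* and 106 bases before that of *Vrk2*. A match of letters does not show that a factor binds there.

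The genes with the next smallest p and a departure above 0, none past the adjusted threshold, included *Drd1*, *Lrrtm3*, *Ngfr*, *Nxph3*, *Tmtc1* and *Ttc7*, which fell in both single mutants and little or no further with both lost. *Drd1*, the D1 dopamine receptor, had values of 7.43, 7.48 and 7.36 in controls, 6.08, 6.16, 5.32 and 5.83 in Tbr1 KO, 6.02 and 6.18 in Tbr2 cKO, and 6.20, 6.03 and 6.30 in Tbr1/2 dKO. All 3 mutant genotypes overlapped, and the change of -1.24 in Tbr1/2 dKO compared with a sum of -2.90 (departure 1.66, SE 0.26, adjusted p = 0.160). Without the lowest array, Tbr1 KO replicate 3, the departure was 1.48 and the adjusted p 0.0129, whereas in the other 11 fits that left out 1 array the adjusted p was 0.0872 to 0.834. The signal of *Drd1* was weak, at percentile 32.4 of all genes for controls. It ranked at 12.1 without *Tbr1*, 13.9 without *Tbr2* and 14.8 without both. Whether so low a signal could have fallen further on the array was not tested.

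*Lrrtm3*, a leucine-rich repeat protein that organises excitatory synapses, fell in every mutant, with changes of -1.81 without *Tbr1*, -1.30 without *Tbr2* and -1.86 without both (departure 1.24, SE 0.23). *Ngfr*, the p75 neurotrophin receptor, fell with changes of -1.34, -0.97 and -1.38 in the same order (departure 0.94, SE 0.16). *Nxph3*, a secreted ligand of alpha-neurexins, fell with changes of -0.76, -0.62 and -0.81 (departure 0.57, SE 0.12). *Tmtc1*, an enzyme that puts mannose on cadherins, fell with changes of -1.30, -0.74 and -1.25, and *Ttc7* with changes of -0.57, -0.47 and -0.52. In each of these 5 genes the double mutant differed from Tbr1 KO by at most 0.05, and neither that difference nor the one from Tbr2 cKO passed the test.

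Some of the genes with the smallest p were changed little in Tbr1/2 dKO although a single mutant differed. *Lmo3*, a LIM-only transcriptional cofactor, had values of 11.80, 11.79 and 11.68 in controls, 11.31, 11.20, 10.95 and 10.78 in Tbr1 KO, 11.58 and 11.78 in Tbr2 cKO, and 11.72, 11.78 and 11.72 in Tbr1/2 dKO. Only the Tbr1 KO arrays were low, and the double mutants lay among the controls and above every Tbr1 KO array. *Lmo3* fell by 0.70 in Tbr1 KO (adjusted p = 0.0144), and Tbr1/2 dKO exceeded Tbr1 KO by 0.68 (adjusted p = 0.0136). The departure was 0.76 (SE 0.17, adjusted p = 0.888). *Lmo3* was chosen by the p of its departure, to which the same Tbr1 KO arrays contribute. The p-values of its Tbr1 KO contrasts are thus no separate support, and this also holds for *Adamts5* and *Ntng1* below.

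In total 27 genes were called lower in both single mutants. All 27 were called lower in Tbr1/2 dKO, and none was called above a single mutant there. Their median change in Tbr1/2 dKO was -1.32, against medians of -0.87 in Tbr1 KO and -0.77 in Tbr2 cKO and a median sum of -1.72. The change in the double mutant was nearer to the larger single change than to the sum in 18 of the 27, with 19 departing as smaller than the sum, 1 as larger (*Plxna4*) and 5 following. As these genes were chosen on the single mutants, whose error enters the departure with the opposite sign (correlation of the errors of sum and departure, -0.82), noise alone moves them towards less than the sum, and the count is a description. Tbr1/2 dKO was called below Tbr1 KO in 8 of the 27 and below Tbr2 cKO in 7, where 185 (1.24%) and 16 genes (0.108%) of all genes were called in either direction. With the replicate number as a block, 77 genes were called between Tbr1/2 dKO and Tbr1 KO, 70 of them among the 185, and Tbr1/2 dKO was called below Tbr1 KO in 5 of the 27.

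In a second group the double mutant lay below a sum that was above 0, and most of these genes were high in Tbr1 KO. *Adamts5*, a metalloprotease that cleaves aggrecan and other lecticans of the matrix, had values of 7.83, 7.89 and 7.67 in controls, 8.89, 9.05, 8.42 and 8.69 in Tbr1 KO, 7.99 and 7.87 in Tbr2 cKO, and 7.79, 7.77 and 7.63 in Tbr1/2 dKO. Every Tbr1 KO array was high, and the double mutants overlapped with the controls. The rise was 0.96 in Tbr1 KO (adjusted p = 0.00447), and Tbr1/2 dKO lay below Tbr1 KO (difference -1.03, adjusted p = 0.00287). The departure of -1.16 (SE 0.20, interval -1.60 to -0.72) did not pass (adjusted p = 0.245). On leaving out 1 array it passed in 1 of 12 fits, without Tbr1 KO replicate 3 (adjusted p = 0.0339), and in the other 11 the adjusted p for *Adamts5* was 0.240 to 1.00.

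*Ntng1*, which encodes netrin-G1, a membrane-anchored relative of the netrins, had values of 7.29, 7.17 and 6.98 in controls, 9.01, 8.42, 8.46 and 8.19 in Tbr1 KO, 7.52 and 7.53 in Tbr2 cKO, and 7.65, 7.48 and 7.91 in Tbr1/2 dKO. All mutant arrays were above the controls, but the double mutants were all below Tbr1 KO. The rise in Tbr1 KO was 1.37 (adjusted p = 0.00289), the change in Tbr1/2 dKO was 0.53 (adjusted p = 0.207), and the departure was -1.22 (SE 0.26, adjusted p = 0.756). *Slc4a10*, a sodium bicarbonate transporter encoded near *Tbr1* on chromosome 2, rose by 1.53 in Tbr1 KO and by 1.04 in Tbr1/2 dKO (departure -1.10, SE 0.24). *Popdc3*, which encodes a cyclic AMP-binding membrane protein, rose by 1.06 in Tbr1 KO and had a change of 0.35 in Tbr1/2 dKO (adjusted p = 0.227, departure -0.69, SE 0.18). Its signal was weak, at percentile 11.6 of all genes in controls and 11.4 in Tbr2 cKO. Whether a fall without *Tbr2* could register at that level was not tested.

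For *Vrk2*, a serine/threonine kinase, the change in Tbr1/2 dKO had the opposite sign to the sum. Its values were 9.41, 9.52 and 9.59 in controls, 10.50, 10.06, 10.19 and 10.23 in Tbr1 KO, 9.06 and 9.26 in Tbr2 cKO, and 8.97, 8.31 and 8.47 in Tbr1/2 dKO. Tbr1 KO lay above all other arrays and the double mutants below all others. The change was 0.74 in Tbr1 KO (adjusted p = 0.0605) and -0.92 in Tbr1/2 dKO (adjusted p = 0.00820), where the sum was 0.40. The departure was -1.32 (SE 0.23, adjusted p = 0.245). On leaving out 1 array, the departure of *Vrk2* passed in 1 of 12 fits, without Tbr1/2 dKO replicate 1 (adjusted p = 0.0356), and in the other 11 the adjusted p was 0.288 to 0.834.

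Tbr1 KO had 92 called genes (0.619%) and Tbr2 cKO 97 (0.653%). Of the 32 genes called higher in Tbr1 KO (0.215% of genes), 18 were also called in Tbr1/2 dKO, counted in either direction. For the 60 called lower in Tbr1 KO (0.404%), the count was 52. For Tbr2 cKO, 35 of 37 genes called higher (0.249%) and 58 of 60 called lower (0.404%) were also called in the double mutant, again in either direction. Whether these shares differ between the mutants was not tested, and Tbr1/2 dKO, Tbr1 KO and Tbr2 cKO were compared with the same 3 controls.

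A smaller number of genes changed by more than the sum, and no departure among them passed the adjusted threshold. *Grp*, which encodes gastrin-releasing peptide, had values of 6.82, 6.56 and 6.87 in controls, 6.78, 7.11, 7.27 and 6.92 in Tbr1 KO, 6.80 and 6.64 in Tbr2 cKO, and 7.79, 8.43 and 8.79 in Tbr1/2 dKO. The double mutants lay above all other arrays, which overlapped with each other. *Grp* rose by 1.59 in Tbr1/2 dKO (adjusted p = 0.00187) where the sum was 0.24, and the departure was 1.34 (SE 0.31, adjusted p = 0.979). The level of *Grp* was low, at percentile 22.25 of all genes in controls and 21.55 in Tbr2 cKO. Whether a fall could register there was not tested.

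*Cbln2*, a secreted organiser of synapses that binds neurexins, rose by 1.20 in Tbr2 cKO and by 1.74 in Tbr1/2 dKO, and its change in Tbr1 KO was -0.21 (departure 0.76, SE 0.30). Without Tbr1/2 dKO replicate 2, the highest array at 10.29, the departure of *Cbln2* was 0.47. *Gng7*, a G-protein gamma subunit, had changes of -0.01 in Tbr1 KO and -0.12 in Tbr2 cKO but fell by 0.47 in Tbr1/2 dKO (adjusted p = 0.00141). The departure of *Gng7* was -0.35 (SE 0.09, adjusted p = 0.999).

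Some genes of axon guidance and lamination had falls larger than the sum. *Plxna4*, a plexin that transduces semaphorin signals, had values of 11.97, 11.94 and 11.70 in controls, 11.28, 11.48, 11.09 and 11.18 in Tbr1 KO, 10.81 and 10.71 in Tbr2 cKO, and 9.46, 9.67 and 9.62 in Tbr1/2 dKO. Each genotype occupied its own range, with the double mutants lowest. The sum was -1.72 and the measured change -2.28 (departure -0.56, SE 0.16, adjusted p = 0.999). Tbr1/2 dKO was below Tbr1 KO (difference -1.67, adjusted p = 1.97e-05) and below Tbr2 cKO (difference -1.17, adjusted p = 0.00459).

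*Reln*, the extracellular protein secreted by Cajal-Retzius neurons, had values of 11.70, 11.74 and 11.74 in controls, 10.29, 10.36, 10.46 and 10.60 in Tbr1 KO, 11.39 and 11.32 in Tbr2 cKO, and 9.71, 8.66 and 9.65 in Tbr1/2 dKO. The double mutants were again the lowest, with replicate 2 well below the others, and the departure of -0.72 (SE 0.32) was -0.37 without that array. *Unc5d*, a netrin receptor of upper-layer precursors, fell by 2.67 in Tbr1/2 dKO against a sum of -2.38 (departure -0.29, SE 0.13), and its departure was -0.16 without Tbr2 cKO replicate 1. On the unlogged scale the departures of *Plxna4*, *Reln* and *Unc5d* turned to above 0. The unlogged sums equal log2 changes of -3.09, -2.49 and -6.00 in that order. So little signal would remain at these sums, above all for *Unc5d*, that there was little room to fall below them. Their falls were thus larger than the sum on the log2 scale only, and nothing is read from the reversal.

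Scale also decided the reading of *Ebf3*, a helix-loop-helix factor of Cajal-Retzius neurons. Its values were 9.58, 9.78 and 9.85 in controls, 11.57, 10.89, 11.16 and 10.67 in Tbr1 KO, 12.34 and 12.32 in Tbr2 cKO, and 12.74, 12.75 and 12.54 in Tbr1/2 dKO. The genotypes did not overlap, and the double mutants were the highest. The log2 sum was 3.93 and the measured change 2.94 (departure -0.99, SE 0.27). If the unlogged increases are added instead, a log2 change of 2.92 results, which was the measured change within the error. *Nhlh1*, a helix-loop-helix factor of newborn neurons, rose by 1.06 in Tbr1/2 dKO, by 0.41 in Tbr1 KO and by 1.03 in Tbr2 cKO (departure -0.38, SE 0.11).

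**Figure D3:**
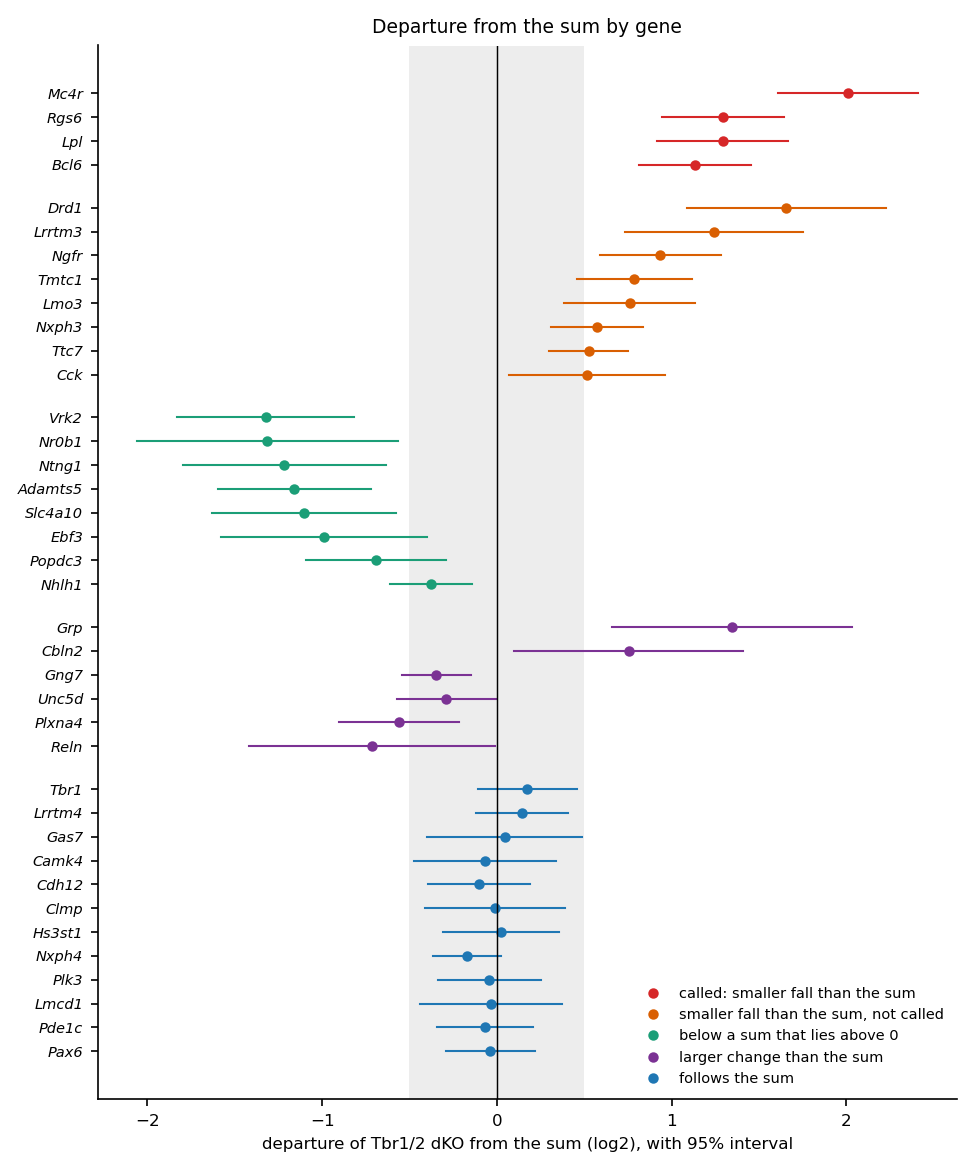
Departure from the summed single changes in Tbr1/2 dKO (points, log2) with its 95% interval (bars) for genes named in the text, ordered by pattern; the shaded band is 0.5 to either side of 0. The 4 called genes lie wholly to the right of the band, while the intervals of the 12 genes shown as following the sum lie inside it.

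Of the targeted genes and their partner in the cascade, *Tbr1* and *Pax6* followed the sum. *Tbr1* was itself knocked out in Tbr1 KO and Tbr1/2 dKO, and *Eomes* in Tbr2 cKO and Tbr1/2 dKO. Their signal there is what remains of a targeted gene, so their additivity cannot be compared with that of *Pax6*. *Tbr1* itself had a change of -1.36 in Tbr1/2 dKO, -1.07 in Tbr1 KO and -0.47 in Tbr2 cKO (departure 0.17, interval -0.11 to 0.46). *Pax6* had changes of 0.53, 0.16 and 0.41 in the same order (departure -0.04, interval -0.29 to 0.22). *Eomes* had changes of -3.43, -0.09 and -3.28, a departure of -0.06 whose interval of -0.82 to 0.70 was too wide to place it within the bound. The Tbr2 cKO arrays differed for *Eomes*, at 9.19 and 8.20.

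The clearest additive falls were in genes lowered by each loss and lowest with both. *Gas7*, a growth-arrest gene expressed in maturing neurons, had values of 10.51, 10.53 and 10.43 in controls, 9.60, 9.66, 9.39 and 9.25 in Tbr1 KO, 9.37 and 9.62 in Tbr2 cKO, and 8.50, 8.27 and 8.80 in Tbr1/2 dKO. The single mutants overlapped, and every double mutant lay below every single mutant. *Gas7* fell with changes of -1.02, -0.99 and -1.97 in the order Tbr1 KO, Tbr2 cKO, Tbr1/2 dKO, against a sum of -2.01 (departure 0.04, interval -0.40 to 0.49). *Cdh12*, a classical cadherin, fell with changes of -0.73, -0.67 and -1.50 (departure -0.10, interval -0.39 to 0.19), and *Lrrtm4*, a relative of *Lrrtm3*, fell with changes of -0.87, -0.74 and -1.46 (departure 0.15, interval -0.12 to 0.41).

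*Lrrtm3*, with the larger falls in the single mutants, had a departure of 1.24, and *Lrrtm4* one of 0.15, a difference between the genes that was not tested. Further followers among the genes with the largest falls were *Camk4*, a calcium/calmodulin-dependent kinase (-1.46 in Tbr1/2 dKO against a sum of -1.40), *Hs3st1*, a heparan sulfate sulfotransferase (-1.07 against -1.10), *Galnt17* (-1.18 against -1.19) and *Clmp*, an adhesion molecule (-0.99 against -0.98).

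Among additive rises, *Lmcd1*, *Plk3*, *Pde1c* and *Th* were called in Tbr2 cKO and not in Tbr1 KO. *Lmcd1*, a LIM-domain cofactor, had changes of 0.23 in Tbr1 KO, 1.40 in Tbr2 cKO and, with both lost, 1.60 (departure -0.04). *Plk3*, a polo-like kinase of the stress response, had values of 8.94, 8.79 and 8.91 in controls, 9.29, 9.06, 9.21 and 9.19 in Tbr1 KO, 10.02 and 10.22 in Tbr2 cKO, and 10.32, 10.56 and 10.28 in Tbr1/2 dKO, with no overlap between genotypes (departure -0.04, interval -0.34 to 0.25). *Pde1c*, a cyclic nucleotide phosphodiesterase, had changes of 0.13, 1.01 and 1.06, and *Th*, the rate-limiting enzyme of catecholamine synthesis, of 0.03, 0.87 and 0.92.

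In *Nxph4*, a secreted neurexin ligand like *Nxph3*, both losses contributed: it rose by 0.47, 0.93 and 1.23 (departure -0.17, interval -0.37 to 0.02). *Nxph3* and *Nxph4* moved in opposite directions in every mutant. *Lurap1l* (0.99 against a sum of 1.03), *Lmo2* (0.88 against 0.83) and *Zfp423* (0.75 against 0.64) completed the 8 largest rises that followed the sum.

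The functions were then compared by 45 gene lists with 868 measured genes. Over all of them, 24 genes departed above 0 and 18 below (4.84% of the list genes, against 3.43% of all genes), and 502 followed the sum (57.8%, against 71.3%). Apart from the choroid plexus, list medians of the departure lay between -0.20 and 0.09, so no list lay far to 1 side of the sum. Departures of opposite sign cancel in a median, so a median near 0 does not show that the members were additive. Departures ranged from -0.98 to 2.01 among neuropeptide genes and from -1.05 to 0.54 among nicotinic and muscarinic receptor genes. The share that followed was above that of all genes in 12 of the 45 lists.

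**Figure D4:**
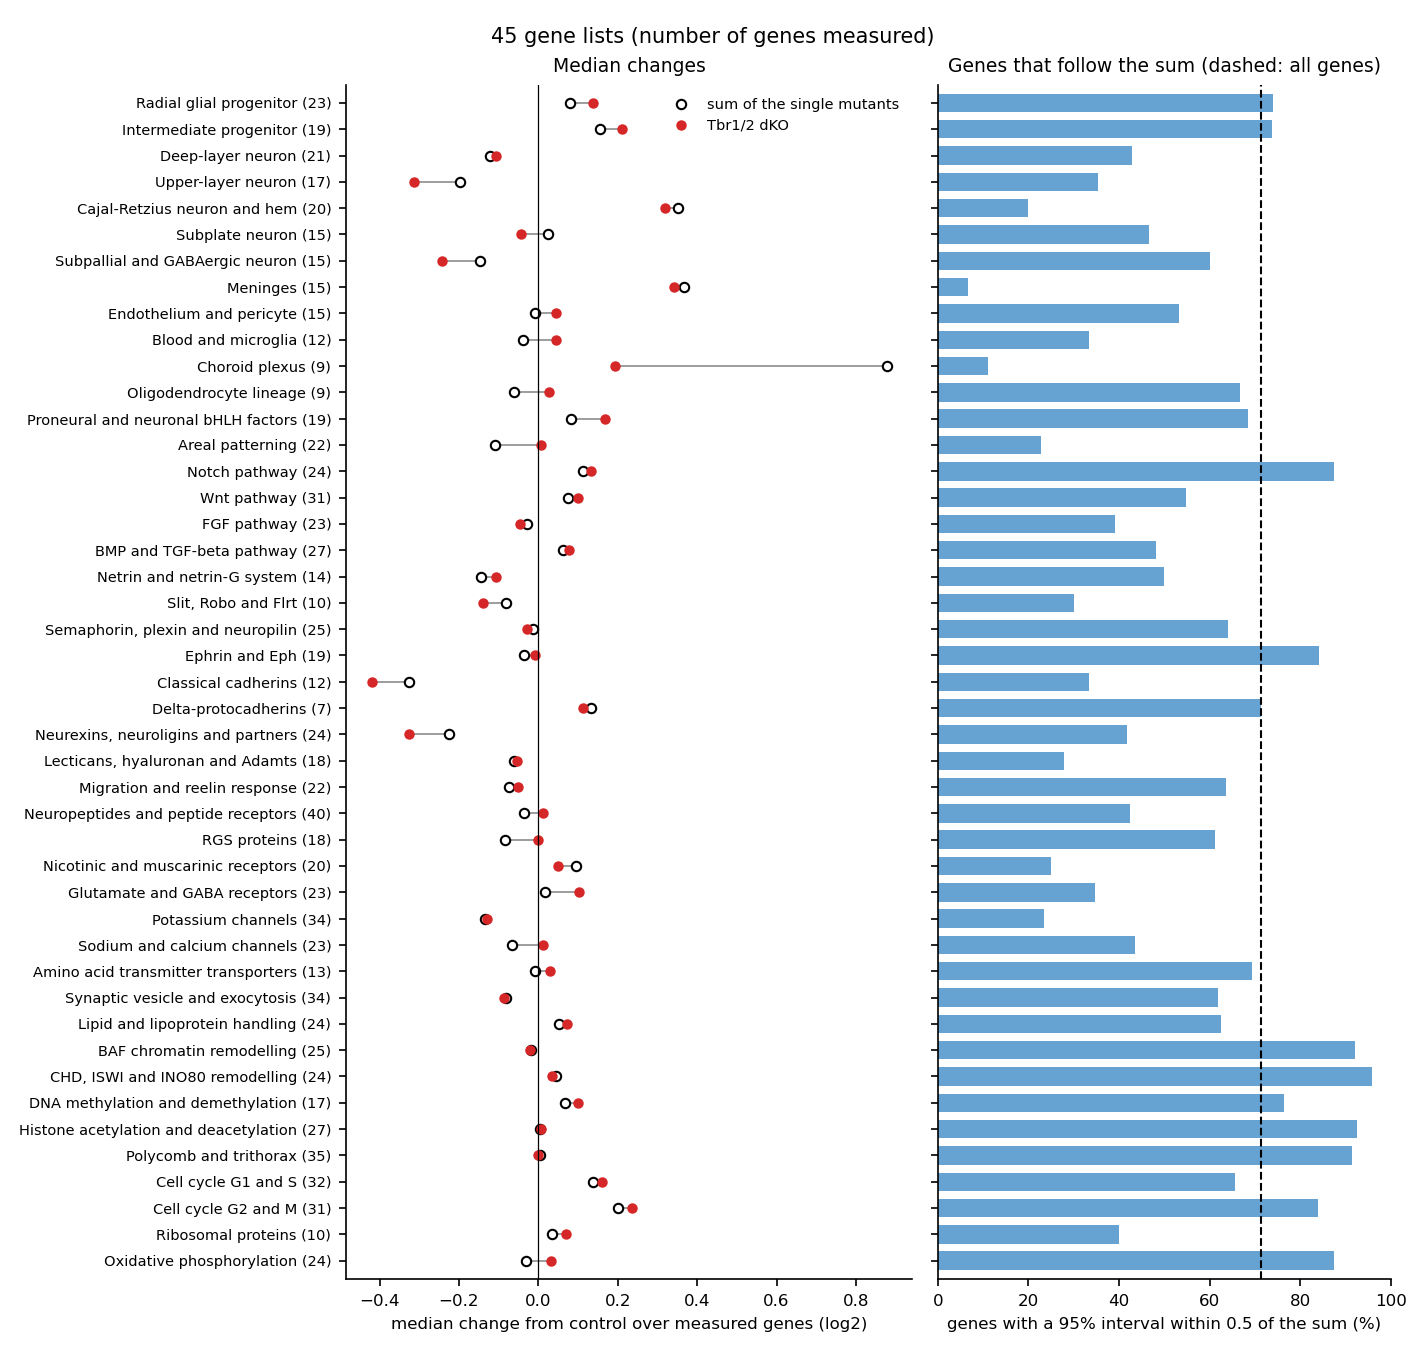
Left, median change from control over the measured genes of each of 45 lists (horizontal axis, log2), with open circles for the sum of the single mutants and filled circles for Tbr1/2 dKO; right, percentage of the genes whose 95% interval of the departure lies within 0.5, with the value over all genes, 71.3%, dashed. Open and filled circles lie close together in most lists, and the choroid plexus, which rests on 1 Tbr2 cKO array, is the exception.

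Chromatin regulators were the functions that followed the sum most fully. Of 126 measured genes in 5 lists, 114 followed (90.5%, against 71.3% of all genes) and 1 departed, where 3.43% of all genes did. The share was 23 of 25 for BAF remodelling, 23 of 24 for CHD, ISWI and INO80 remodelling, 13 of 17 for DNA methylation and demethylation, 25 of 27 for histone acetylation and deacetylation, and 32 of 35 for Polycomb and trithorax. These genes also had narrow intervals, with a median standard error of 0.10 against 0.13 over all genes. Of the 126, 10 were called in Tbr1/2 dKO, where 3.11% of all genes were. The part of precision and size of change in the share within 0.5 was not tested.

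Of the 10 chromatin genes called in Tbr1/2 dKO, 7 followed, and of all genes called there 52.8% did. Whether these shares differ was not tested, and 10 genes are few for it. *Jarid2*, a partner of Polycomb repressive complex 2, had a change of -0.32 against a sum of -0.24. *Dnmt3a*, a DNA methyltransferase, had 0.26 against 0.28, and *Baz2b*, a bromodomain protein, 0.43 against 0.47. *Smarca2*, an ATPase of BAF complexes, fell with changes of -0.78 in Tbr1 KO and -0.99 in Tbr1/2 dKO, against a sum of -1.18, with a departure of 0.19 (interval -0.18 to 0.57) that reached past the bound. *Hdac9*, a class IIa histone deacetylase, had 0.55 against 0.65, also with an interval past the bound (-0.52 to 0.32).

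The exception was *Dpf3*, a BAF subunit, with values of 9.36, 9.39 and 9.20 in controls, 8.95, 8.80, 8.64 and 8.50 in Tbr1 KO, 8.76 and 8.92 in Tbr2 cKO, and 8.82, 8.83 and 8.90 in Tbr1/2 dKO. All mutants were below the controls and overlapped with each other. The sum was -1.07 and the change -0.47 (departure 0.61, SE 0.15, adjusted p = 0.999). *Chd3*, of the NuRD complex, and *Gm20735* were included because the study classed them as activated by *Tbr1* and *Tbr2* jointly. Its criteria were binding sites of both factors and a p under 0.05 in the double mutant but in neither single mutant. No adjustment of that p is stated, and the criteria did not compare the double mutant with the sum. Here the changes of *Chd3* and *Gm20735* in Tbr1/2 dKO were -0.30 (adjusted p = 0.174) and -0.33 (adjusted p = 0.165), a stricter threshold. Their single-mutant changes lay between -0.15 and -0.19, and both followed the sum, with departures of 0.09 (interval -0.22 to 0.39) and -0.01 (interval -0.34 to 0.32).

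Among 205 measured genes of neuronal excitability in 8 lists, 89 followed (43.4%, against 71.3% of all genes). Of the 205, 9 departed above 0 (2.29% of all genes did) and 3 below (1.14% of all genes did). Their median standard error was 0.18, against 0.13 over all genes, and the part of precision in these shares was not tested. Neuropeptides and their receptors had 4 above and 1 below of 40 genes, among them *Mc4r*, *Grp* and *Cck*, the cholecystokinin gene, which fell with changes of -0.76, -0.83 and -1.08 (departure 0.52, SE 0.20). RGS proteins had 3 above of 18, among them *Rgs6* and *Rgs4*, whose changes were -0.50, 0.37 and 0.54 (departure 0.67, SE 0.30), none of them past the test. Of 34 potassium channel genes none departed, at unadjusted p, and 8 followed (23.5%), with a median standard error of 0.20.

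The nicotinic receptor genes *Chrna3* and *Chrnb4* share a cluster on chromosome 9. *Chrna3* had changes of 1.30, 2.50 and 2.75 in that order of genotypes (departure -1.05, SE 0.46). If its unlogged increases are added instead, a log2 change of 2.83 results, so that its departure depends on the scale, as for *Ebf3*. *Chrnb4* had changes of 0.50, 0.95 and 1.31 (departure -0.14, SE 0.28), and the difference between the genes was not tested. *Slc17a7*, the vesicular glutamate transporter VGLUT1, had a change of -2.16 against a sum of -1.63 (departure -0.53, interval -1.18 to 0.12). *Scn1a*, a sodium channel, had no called change in any mutant (departure -1.08, SE 0.41), and its control arrays alone spanned 7.32 to 8.48.

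Guidance and adhesion lists differed in the side of their departures. Over all genes 1.14% departed below 0, 2.29% above, and 71.3% followed. In 4 guidance lists with 68 genes, 5 lay below 0, none above, and 42 followed (61.8%). The 5 were *Ntng1*, *Unc5d*, *Plxna4*, *Sema3c* and *Epha7*, of which *Unc5d* and *Plxna4* also belong to the upper-layer list. In Tbr1/2 dKO the mean of *Ntng1* was above that of controls, and the means of the others were below. In 3 adhesion lists with 43 genes, 4 lay above and 1 below, and 19 followed (44.2%). Median standard errors were 0.15 for guidance and 0.18 for adhesion genes, against 0.13 over all genes. The part of precision in the shares that followed was not tested. The difference in side between the functions was not tested. Ephrins and Eph receptors were the guidance genes that followed most, 16 of 19, with *Epha3* at -0.81 against a sum of -0.70. *Epha7* fell by 0.54 in Tbr1/2 dKO, against a sum of -0.27, and departed by -0.26 (SE 0.10) while still within the bound. *Robo2*, a Slit receptor, had -2.38 against -1.90 (departure -0.49, interval -1.12 to 0.14). *Sema3c*, a secreted semaphorin, had -1.13 against -0.34 (departure -0.79, SE 0.36), and -0.44 for the departure without Tbr1/2 dKO replicate 2, whose value of 7.86 was below the other arrays.

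Among signalling pathways, the Notch list followed with 21 of 24 genes (87.5%), including all 5 of its genes called in Tbr1/2 dKO. *Maml3*, a coactivator of Notch, rose by 0.47 in Tbr2 cKO and 0.50 in Tbr1/2 dKO, with -0.11 in Tbr1 KO. The shares were 17 of 31 for Wnt, 9 of 23 for FGF and 13 of 27 for BMP and TGF-beta genes. *Wnt7b* was lowered by each loss and lowest in the double mutant, with changes of -1.12, -0.86 and -2.24 (departure -0.27, interval -0.64 to 0.10). *Inhba*, an activin subunit, had a change of 0.57 in Tbr1 KO and -0.53 in Tbr1/2 dKO, neither past the test (departure -0.74, SE 0.33), and Tbr1/2 dKO was below Tbr1 KO (difference -1.10, adjusted p = 0.0329, and 0.0545 with the replicate block).

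Among cell type lists, progenitor genes followed the sum about as often as all genes (71.3%), and deep-layer and upper-layer neuron genes less often. Radial glial genes followed in 17 of 23 with none departing, and intermediate progenitor genes in 14 of 19 with 1 departing. *Gadd45g*, a gene of cell cycle exit and DNA demethylation, had a change of 0.56 against a sum of 0.40 (departure 0.16, interval -0.11 to 0.42). Deep-layer genes followed in 9 of 21, and the 3 that departed, *Bcl6*, *Lmo3* and *Tle4*, all lay above 0. Upper-layer genes followed in 6 of 17, and the 4 that departed all lay below 0, with *Plxna4*, *Unc5d* and *Inhba* among them. The shares that followed were 73.9% of radial glial, 73.7% of intermediate progenitor, 42.9% of deep-layer and 35.3% of upper-layer genes. Median standard errors of the departure were 0.14, 0.13, 0.17 and 0.21 in that order, against 0.13 over all genes. Over all genes 2.29% departed above 0 and 1.14% below. Neither the part of precision in these shares nor the difference between the layers was tested. *Bcl11b*, a factor of deep-layer neurons (Ctip2), fell by 0.78 against a sum of -0.73 and followed.

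Cell cycle genes (74.6%) and housekeeping genes (73.5%) followed the sum about as often as all genes (71.3%). Over all genes 3.43% departed, so that few departures are found in lists of this size in any case. Of 63 cell cycle genes, 47 followed and none departed at unadjusted p. The median of 31 genes of G2 and M was 0.24 in Tbr1/2 dKO against 0.20 for the sum. None of them was called in any mutant against control, where 3.11% of all genes were called in Tbr1/2 dKO. Of 24 oxidative phosphorylation genes 21 followed, and none departed. Ribosomal protein genes, of which 10 were measured, had 2 above 0 and 4 that followed.

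Lists of tissue around the cortex could not be read for additivity. The median departure of 9 choroid plexus genes was -0.62, but it was 0.05 without Tbr2 cKO replicate 1 and -1.27 without Tbr2 cKO replicate 2. The median of 15 meningeal genes was -0.04, and it was 0.41 and -0.46 without these arrays in turn. The median of 20 Cajal-Retzius and hem genes, -0.20, was 0.01 without Tbr2 cKO replicate 1. The departures of other genes were refitted with the meningeal mean as a covariate, with which *Mc4r* was the 1 gene called.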

How the data were processed

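RNA from the E14.5 neocortex of single embryos was hybridised to Affymetrix Mouse Exon 1.0 ST arrays, 1 array per embryo. The authors deposited log2 expression values per probeset after RMA (background correction, quantile normalization and summary of probes) with the package oligo (versions: not given in the sources used here). Each embryo was an independent replicate, and precision is limited by how many there were. Array medians over all probesets lay between 8.15 and 8.25.

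Of 23332 probesets, 14996 had 1 gene symbol in the platform annotation, 1019 had several and 7317 had none; the brightest probeset was kept for the 135 genes with more than 1, leaving 14860 genes. A single limma model (version 3.58.1, R 4.3.3) with 4 group means was fitted to all 12 arrays, and p-values were adjusted by Benjamini-Hochberg over all genes. It was tested on simulated data. Contrasts, departures and 95% intervals come from this fit.

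The members and the 45 gene lists (868 of 1055 genes measured) were chosen with earlier results of these data known. The genes named were *Tbr1*, *Eomes* and *Pax6*; those called for a departure; the 10 of each sign with the smallest p among the rest; the 8 of each direction with the largest Tbr1/2 dKO change among followers; per list, up to 3 departing and 2 called in Tbr1/2 dKO; and *Chd3* and *Gm20735*. Not all are described. Promoters are RefSeq sequences of GRCm38.p6. Alternatives were other probesets, filters, normalizations, scale, prior, weights, covariates, block and bounds, and leaving out each array.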

Additional observations from a re-analysis of the deposited data

Results flagged for a closer look

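*Mc4r* (departure 2.01), *Rgs6* (1.30), *Bcl6* (1.13) and *Lpl* (1.29) are listed because the effect of 1 loss differed with the other at an adjusted p under 0.05 by limma. In Tbr1 KO, *Adamts18*, a metalloprotease of the same family as *Adamts5*, had 1 array at 9.67 while the other 3 lay between 9.34 and 9.38, a gap of 0.873 of the range. It was the 1 such gene among 80 examined in the 4 Tbr1 KO arrays, where chance lets through about 1 in 20.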

How the results depend on the processing

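The number of genes called for a departure was 4, and it was 1 with Y-linked genes as a covariate, with meningeal genes as a covariate, over all probesets and after repeated quantile normalization. It was 2 with subpallial genes as a covariate and 2 over genes above the median mean, 0 with the replicate number as a block, 6 on the linear scale and 1 to 6 without single arrays. The linear scale and the fits with 1 Tbr2 cKO array are left out of the following ranges. Over the other alternatives the adjusted p was 0.00126 to 0.0634 for *Mc4r* and 0.0107 to 0.262 for *Rgs6*. It was 0.0178 to 0.1565 for *Bcl6* and 0.0195 to 0.341 for *Lpl*.

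On the linear scale the departures of *Ebf3* (0.017), *Plxna4* (0.15), *Reln* (0.039) and *Unc5d* (0.24) reversed, and *Drd1* and *Ngfr* were called. Counts of followers and list medians were not run on that scale, whose unit differs.

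Genes departing at unadjusted p numbered 945 over all probesets (576 below 0) and 919 with array weights (609 above and 310 below); 198 lay above 0 after centring of arrays and 272 below 0 after repeated quantile normalization. With subpallial genes as a covariate, 192 genes were called in Tbr1/2 dKO, 11 of them larger than the sum and 86 following. Array weights gave 93 smaller than the sum, and all probesets 138 following. A bound of 0.3 left 3904 followers, 71 of them called in Tbr1/2 dKO, and genes above the median mean held 6307 followers. Without single arrays, 258 to 446 genes were called in Tbr1/2 dKO, with 10 to 42 larger, 35 to 60 smaller and 104 to 230 following, and 217 to 458 of all genes departed above 0.

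List medians of the departure moved beyond the spread of replicates in these cases. With array weights the median was -0.071 for radial glial, 0.081 for deep-layer, -0.021 for areal, 0.015 for FGF, 0.10 for semaphorin, 0.13 for synaptic vesicle and -0.11 for G1 and S genes. Over genes above the median mean the median was -1.14 for meningeal, 0.21 for oligodendrocyte, -0.097 for areal, 0.023 for FGF, -0.072 for BMP, -0.18 for Slit and Robo, -0.036 for neuropeptide, -0.0087 for RGS and -0.056 for nicotinic genes. With the Y-linked covariate the median was 0.087 for proneural genes. With the meningeal covariate the median was 0.060 for proneural and -0.067 for Slit and Robo genes. After repeated quantile normalization the median was 0.032 for FGF, -0.0026 for RGS and 0.0056 for histone acetylation genes. With the replicate block the median was -0.16 for Slit and Robo and 0.060 for delta-protocadherin genes. With arrays centred on their medians the median was -0.014 for lipid, -0.0078 for BAF, -0.0073 for histone acetylation, -0.019 for Polycomb and 0.012 for oxidative phosphorylation genes. With the mean over the probesets of a gene the median was -0.018 for Polycomb genes.

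Without single arrays, list medians ranged from 0.024 to 0.12 for intermediate progenitor, -0.055 to 0.023 for deep-layer, -0.053 to 0.069 for subplate, -0.46 to 0.41 for meningeal, 0.049 to 0.13 for blood, -1.27 to 0.049 for choroid plexus, -0.054 to 0.10 for proneural and -0.020 to 0.058 for areal genes. They ranged from 0.0023 to 0.067 for FGF, -0.030 to 0.066 for netrin, -0.22 to -0.074 for Slit and Robo, -0.028 to 0.076 for ephrin, -0.12 to 0.016 for cadherin, -0.0010 to 0.13 for neurexin, -0.14 to 0.060 for lectican and 0.052 to 0.14 for neuropeptide genes. For the remaining lists they ranged from 0.0022 to 0.087 for RGS, -0.050 to 0.15 for nicotinic, -0.063 to 0.075 for potassium channel, 0.0033 to 0.054 for lipid, -0.042 to 0.021 for CHD, -0.020 to 0.035 for Polycomb and 0.024 to 0.067 for oxidative phosphorylation genes.

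Over the 4 genotypes, same-numbered arrays shared only a number (correlations of their deviations -0.12 to 0.38). In Tbr1 KO and Tbr1/2 dKO all 3 correlations were above 0.1 (0.18 to 0.38), and for that comparison the block, chosen after seeing the data, left 77 called genes in place of 185. The cause of these changes was not tested. With 2 Tbr2 cKO arrays, 1 array can carry much of a departure.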
